A study of Mus musculus and Homo sapiens with 10 samples.

Results

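In mouse embryonic stem (ES) cells, 192 genes stood higher in library 1 than in library 2 of both groups sequenced, the Gm6871 knockdown and its control. They were chosen by measured values: each was at least 1 unit higher in library 1 on the log2(RPKM + 0.5) scale, where RPKM is reads per kilobase of the RefSeq entry scaled to the depth of the library. The difference, library 1 minus library 2, is called the gap here. The candidates were 11658 genes with a mean of at least 0.5 RPKM over the 4 libraries, out of 30619 genes or unmatched entries in the table. Both gaps were met by 193 of them, 1.66% of those tested, and Pou3f1 was then set aside with 6 other genes of the primed state that the choice leaves out by name. Of the 192, 188 matched a gene symbol, 185 of them protein coding and 3 noncoding, and 4 were RefSeq entries with no symbol. Since the minimum level was part of the choice, all 192 passed it.

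The Gm6871 KD group was the mouse line ES3 (C57BL/6), sequenced 4 days after transduction with LV sh-Gm6871, a lentivirus that carries a hairpin against the KRAB zinc finger gene Gm6871, with 2 libraries. The control group was the same line 4 days after transduction with LV sh-empty, the vector without a hairpin, with 2 libraries. All 4 were made from polyadenylated cytoplasmic RNA. Human H1 ES cells at passage 69 gave 1 library with LV sh-DNMTs, which targets the DNA methyltransferases, and 1 with LV sh-empty. The labels number the mouse libraries 1 and 2 without saying whether they were separate cultures, so a p-value here measures the spread between samples that may be technical. No entry of the table matched Gm6871, so its own knockdown was not checked.

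ES cells are the cultured counterpart of the epiblast, the layer of the early embryo that forms all tissues of the body, and their cultures are known to hold some cells that have begun to differentiate. Keratins 8 and 18 are the first keratins of the embryo and appear in the trophectoderm, the epithelium that surrounds it. The T-box factor T marks the primitive streak, where mesoderm arises. Genes of the contractile cytoskeleton are known targets of serum response factor, which binds CArG boxes, and interferon-stimulated genes of factors that bind the interferon-stimulated response element (ISRE), while ES cells are known for a weak interferon response.

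The libraries held 51415125 reads in KD library 1 and 66050821 in KD library 2, against 37198636 in control library 1 and 63023969 in control library 2. In each group the library numbered 1 was thus the shallower one. Pou5f1, Sox2, Nanog and Zfp42, genes of the ES cell state, lay between 64.3 and 1175 RPKM in all 4 libraries, with every gap between −0.32 and 0.21. Over all genes tested the median gap was 0.02 in KD cells and 0.03 in control cells. KD library 2 stood apart in several abundant genes. The 28S ribosomal RNA entry Rn28s1 read 209 and 1128 RPKM in KD libraries 1 and 2, against 263 and 66.2 in control libraries 1 and 2. Actb read 980 and 455 RPKM, against 937 and 1019. Vim read 92.4 and 22.7 RPKM, against 90.5 and 112.5, and Tmsb4x read 209.5 and 89.8 RPKM, against 207.3 and 221.4. The part of depth and of these differences in the results was not tested.

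Most members were under 1 RPKM in library 2 of each group. Their median level was 3.65 RPKM in KD library 1 and 0.69 in KD library 2, against 5.00 in control library 1 and 0.77 in control library 2, while the median of all genes tested lay between 9.16 and 9.69 in every library. Under 1 RPKM stood 12 members (6.25%) in KD library 1 and 112 (58.3%) in KD library 2, against 2 (1.04%) in control library 1 and 109 (56.8%) in control library 2. Of all genes tested, 11.9% and 12.3% were under 1 RPKM in KD libraries 1 and 2, against 11.8% and 14.1% in control libraries 1 and 2. That members stood lower in libraries 2 follows from the choice. The median gap was 1.39 in KD cells and 1.78 in control cells, and the gap was larger in KD cells for 55 members and in control cells for 137. The smaller of the gaps was at least 3 for 9 members and at least 2 for 31, while 121 lay under 1.5. In bulk RNA, fewer cells of a type and less RNA per cell cannot be told apart.

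**Figure D1:**
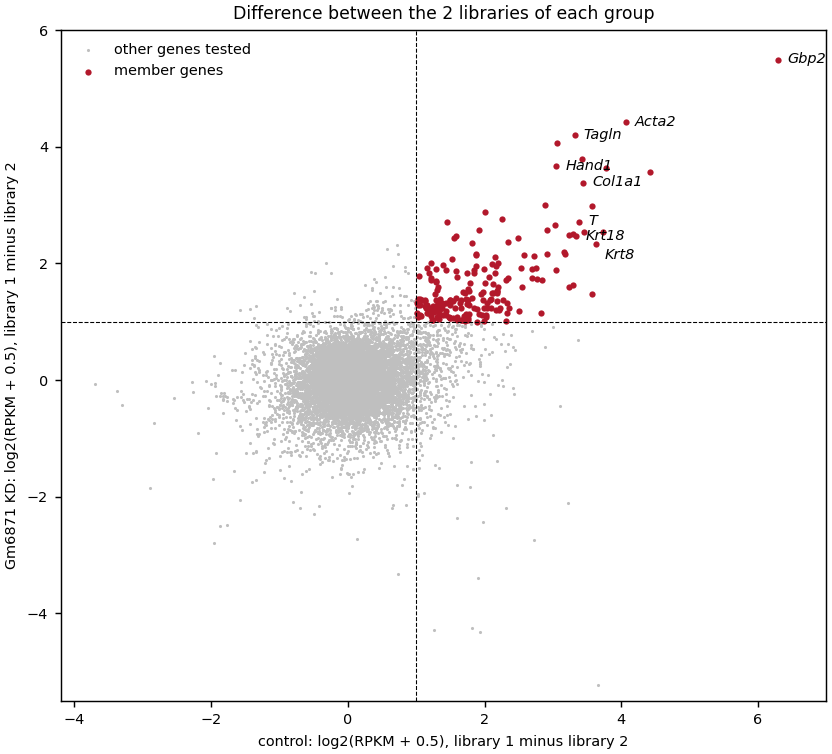
Each point is 1 of the 11658 genes tested, placed by its gap in control cells (horizontal) and in Gm6871 KD cells (vertical), both as library 1 minus library 2 in log2(RPKM + 0.5); dashed lines mark the threshold of 1. The 192 members fill the upper right corner by choice, and Gbp2, at 5.49 in KD cells and 6.30 in control cells, lies farthest out.

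Just inside the threshold lay Lad1, Grhl2 and Col6a1, whose smaller gaps were 1.02, 1.01 and 1.00. Just outside lay Herc6, Tnnc1 and Rhox9, at 0.99, 0.98 and 0.98. Members and nearest non-members thus form a continuum at this edge. The opposite pattern, at least 1 unit lower in library 1 in both groups, was met by 23 genes.

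The marker genes given with the set showed the pattern at very different levels. Krt8, a keratin of simple epithelia, read 181 RPKM in KD library 1 and 35.6 in KD library 2, against 199 and 15.6 in control libraries 1 and 2. Its partner Krt18 read 146 and 26.0 RPKM in the KD libraries, against 156 and 14.9 in the controls. Both keratins were therefore abundant in libraries 1 and still well measured in libraries 2. Hand1, a factor of trophoblast giant cells and of lateral and extraembryonic mesoderm, read 8.00 and 0.17 RPKM in KD cells, against 8.50 and 0.59 in control cells. T read 3.33 and 0.08 RPKM in KD cells, against 6.96 and 0.22 in control cells. Col1a1, a chain of the main collagen of connective tissue, read 9.45 and 0.45 RPKM in KD cells, against 9.03 and 0.37 in control cells. Hand1, T and Col1a1 were thus under 1 RPKM in both libraries 2 and at 3.33 RPKM or more in both libraries 1. Tagln, an actin-binding protein of smooth muscle, read 17.6 and 0.49 RPKM in KD cells, against 18.3 and 1.38 in control cells. Acta2, smooth muscle alpha-actin, read 10.6 and 0.02 RPKM in KD cells, against 7.85 and 0 in control cells. Gbp2, an interferon-induced guanylate-binding protein, read 23.1 and 0.02 RPKM in KD cells, against 53.5 and 0.19 in control cells. Behind the last 2 genes stood 2 reads of Acta2 in KD library 2 and 0 in control library 2, and 4 and 29 reads of Gbp2, so their gaps rest on very few reads in libraries 2.

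**Figure D2:**
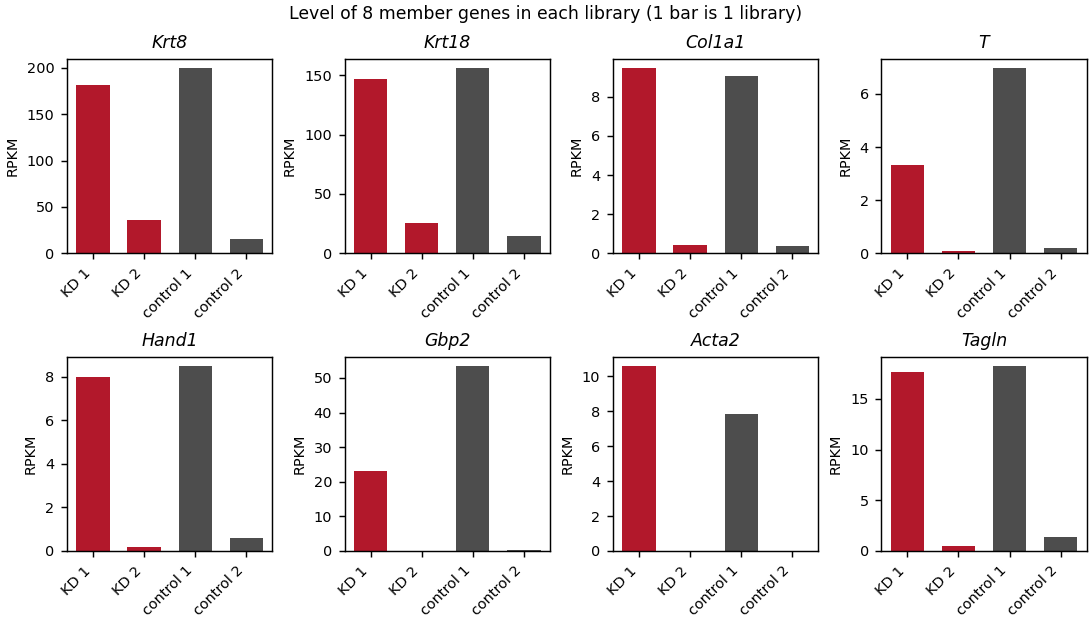
RPKM of the 8 marker genes in KD libraries 1 and 2 (red) and control libraries 1 and 2 (grey), each panel on its own linear axis from 0; 1 bar is 1 library, with no error bar. In each panel both libraries 1 exceed both libraries 2, from Krt8 at 181 and 199 RPKM down to T at 3.33 and 6.96.

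Among 26 tested genes of simple epithelium and trophectoderm, 8 were members, and the list's median gap was 0.65 in KD cells and 0.93 in control cells. Krt19, another simple-epithelial keratin, read 67.1 and 23.7 RPKM in KD cells, against 108 and 8.66 in control cells. Cldn6, a tight-junction claudin of early embryonic epithelium, read 55.9 and 24.8 RPKM in KD cells, against 67.8 and 9.16 in control cells. The desmosome gene Dsp read 11.7 and 3.44 RPKM in KD cells, against 16.4 and 1.24 in control cells. In each of these genes KD library 2 stood above control library 2 and KD library 1 below control library 1. Cdx2, a factor of trophectoderm and of posterior mesoderm, read 0.66 and 0.01 RPKM in KD cells, against 1.38 and 0.19 in control cells, and Dlx3, a homeobox gene of placenta and epidermis, was the other member not yet named. Other defining genes did not share the pattern. Gata3, which the trophectoderm also uses, had gaps of 0.92 in KD cells and −0.26 in control cells, Krt7 of −0.68 and 1.99, and Elf5 was at or below 0.02 RPKM in every library. Of the list, 15 genes were higher in library 1 in both groups, the 8 members among them by choice, and 5 lower in both.

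Of 17 tested genes of the primitive streak and early mesoderm, 4 were members, T, Wnt3, Cdx1 and Cdx2. Wnt3, the ligand needed to form the streak in the mouse, read 2.10 and 0.08 RPKM in KD cells, against 3.69 and 0.06 in control cells. Cdx1, a posterior homeobox factor, read 13.5 and 5.27 RPKM in KD cells, against 10.6 and 4.48 in control cells. The list's median gap was 0.34 in KD cells and 0.53 in control cells. Eomes, which marks streak and trophoblast, had gaps of −0.78 and −0.26, opposite to T. Mixl1 lay between 0.14 and 0.46 RPKM and Mesp1 at or below 0.09 RPKM in all libraries, under the minimum level. Of 13 tested genes of lateral and extraembryonic mesoderm, Hand1 and Pmp22 were members, and Bmp4, a signal of that tissue, had gaps of 0.91 in KD cells and −1.31 in control cells. Pmp22, a tetraspan membrane protein, read 4.92 and 1.03 RPKM in KD cells, against 5.61 and 0.88 in control cells.

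The contractile cytoskeleton and smooth muscle list held 9 members among 23 tested genes, with a median gap of 0.75 in KD cells and 0.98 in control cells over the list. Beside Acta2 and Tagln these were Acta1, Cnn1, Cnn2, Myl9, Flnc, Cald1 and Zyx. Cnn2, a calponin that binds actin, read 55.9 and 18.2 RPKM in KD cells, against 62.8 and 13.3 in control cells. Cald1, caldesmon, read 38.5 and 11.1 RPKM in KD cells, against 50.3 and 9.50 in control cells. Zyx, a protein of focal adhesions, read 11.8 and 4.55 RPKM in KD cells, against 15.5 and 7.37 in control cells. Those 3 were at 4.55 RPKM or more in all libraries, whereas the muscle isoforms among the members were low in libraries 2. Flnc, the filamin of muscle, read 10.2 and 0.85 RPKM in KD cells, against 12.7 and 1.29 in control cells. Acta1, skeletal muscle alpha-actin, read 3.39 and 0.12 RPKM in KD cells, against 4.05 and 0.06 in control cells. Some general cytoskeletal genes had smaller gaps: Flna, the widely expressed filamin, had gaps of 0.67 and 0.10, Vcl of 0.83 and 0.95, and Myh9 of −0.09 and 0.52. But the nonmuscle myosin Myh10, on no list, was a member, with gaps of 1.08 and 1.31. Nor did every muscle gene share the pattern. Des read 9.27 and 7.16 RPKM in KD cells, against 10.2 and 5.61 in control cells. Tpm2 read 8.52 and 6.37 RPKM, against 9.61 and 5.48. Actg2, a smooth muscle actin, was at or below 0.03 RPKM in all libraries. Srf itself, the factor that binds CArG boxes, had gaps of 0.75 in KD cells and 0.08 in control cells and was no member.

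The promoters of the contractile members are shown because 5 of their 10 promoter windows held a CArG box with at most 1 inner base off, counted on both strands. The RefSeq windows of build GRCm38.p6 run from 250 bases before to 50 after the transcript start, and 8 of the 9 contractile members had one. The stretches of 4 of the 5 are shown, end before the start, and have the CArG matches in capitals.
Acta2 (GRCm38.p6 chr19:34255374-34255482, minus strand): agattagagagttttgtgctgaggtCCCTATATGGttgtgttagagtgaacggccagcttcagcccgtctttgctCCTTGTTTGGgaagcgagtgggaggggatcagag
Myl9 (GRCm38.p6 chr2:156775278-156775399, plus strand): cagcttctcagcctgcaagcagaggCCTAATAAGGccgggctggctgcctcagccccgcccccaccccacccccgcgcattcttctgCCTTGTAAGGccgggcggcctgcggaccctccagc
Cnn2 (GRCm38.p6 chr10:79988519-79988578, plus strand): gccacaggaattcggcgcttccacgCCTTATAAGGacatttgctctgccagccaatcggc
Flnc (GRCm38.p6 chr6:29432965-29433024, plus strand): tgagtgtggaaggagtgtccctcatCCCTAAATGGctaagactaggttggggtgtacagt
With no base off, the CArG box was found in 3 of these windows, those of Acta1, Myl9 and Cnn2. Its form with at most 1 base off occurred in 8.77% of the windows of all genes tested and in 9.98% of those of the whole table. Acta2 held 2 matches, starting 84 and 34 bases before the transcript start, and Myl9 held 2, at 161 and 99 bases. A match is a run of letters in the window, and binding was not measured there.

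Matrix genes formed the largest listed group after the interferon genes, with 10 members among 25 tested genes and a median gap of 0.87 in KD cells and 0.92 in control cells over the list. Igfbp3, a secreted carrier of insulin-like growth factors, read 40.0 and 2.43 RPKM in KD cells, against 100.5 and 8.86 in control cells. Thbs1, the matrix glycoprotein thrombospondin 1, read 12.4 and 0.27 RPKM in KD cells, against 15.5 and 1.42 in control cells. Col1a2, the partner chain of Col1a1, read 3.67 and 0.02 RPKM in KD cells, against 5.98 and 0.04 in control cells. All 3 were several-fold higher in each library 1 than in either library 2. Col5a1, a fibril collagen, read 6.88 and 0.59 RPKM in KD cells, against 9.52 and 1.61 in control cells. Mmp14, a membrane-bound protease that cleaves collagen, read 8.05 and 2.56 RPKM in KD cells, against 9.07 and 3.44 in control cells. Bgn, Timp2, Tnc and Col6a1 were the other members of the list. Of the defining fibroblast genes, Col3a1 had gaps of 1.09 and 0.96 at no more than 0.58 RPKM, Thy1 had gaps of 0.33 and −0.36, Twist1 of −0.38 and −0.65, and Postn and Pdgfrb were at or below 0.05 RPKM in all libraries.

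Of 17 tested genes known to respond to YAP or TGF-beta, 3 were members, Thbs1 and Tgfb2 among them. Tgfb2, one of the ligands, read 1.63 and 0.20 RPKM in KD cells, against 1.56 and 0.33 in control cells. The whole list moved less, with a median gap of 0.35 in KD cells and 0.09 in control cells.

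**Figure D3:**
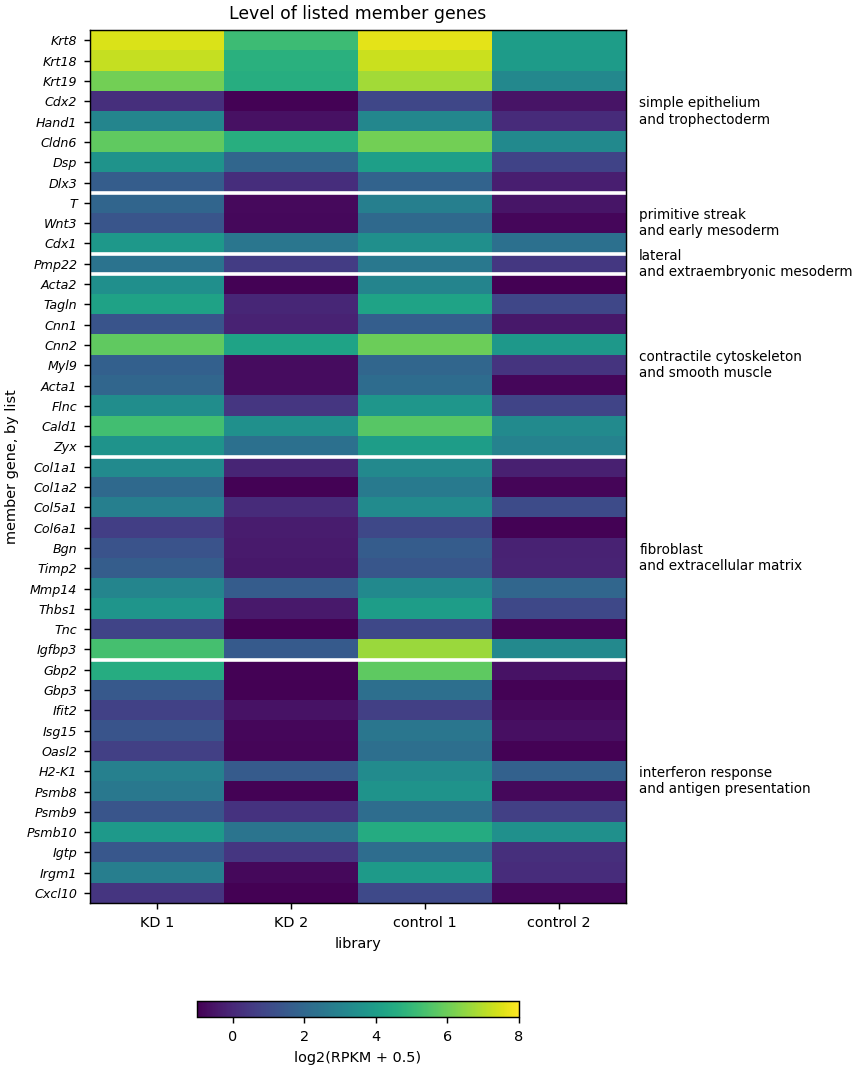
Level of the members of 6 gene lists, 1 row per gene and 1 column per library in the order KD 1, KD 2, control 1 and control 2, coloured by log2(RPKM + 0.5); a gene on 2 lists is drawn under the first. Libraries 1 are brighter than libraries 2 in each row by choice, and the keratins, Cnn2, Cald1 and Igfbp3 start from the highest levels.

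The interferon response and antigen presentation list had the largest share of members, 12 of 27 tested genes, and the largest median gap of the 17 lists, 1.08 in KD cells and 1.37 in control cells. Of the 27 genes, 22 were higher in library 1 in both groups and 0 lower in both, against 3414 and 2725 of all 11658 genes tested. The 12 members are among the 22 by choice. Since the list was also made with earlier results of these data known, nothing is read from these counts. Irgm1, an immunity-related GTPase, read 6.66 and 0.07 RPKM in KD cells, against 14.6 and 0.61 in control cells. Psmb8, a catalytic subunit that turns the proteasome into the immunoproteasome, read 5.58 and 0.01 RPKM in KD cells, against 11.9 and 0.08 in control cells. Psmb8 was near 0 in both libraries 2, with 1 read in KD library 2 and 6 in control library 2, whereas Irgm1 had 11 and 85 reads there. Psmb10, another such subunit, read 13.8 and 4.95 RPKM in KD cells, against 23.0 and 11.01 in control cells. Psmb9, the remaining subunit of that kind, read 2.10 and 0.73 RPKM in KD cells, against 4.10 and 1.14 in control cells. H2-K1, a class I antigen-presenting molecule, read 7.16 and 2.49 RPKM in KD cells, against 9.63 and 2.98 in control cells. Gbp3, next to Gbp2 on chromosome 3, read 2.37 and 0.01 RPKM in KD cells, against 4.41 and 0.02 in control cells. Isg15, Ifit2, Oasl2, Igtp and Cxcl10 completed the members. Isg15, the ubiquitin-like protein, read 2.06 and 0.06 RPKM in KD cells, against 5.26 and 0.15 in control cells. Reads shared between the related Gbp genes, or between class I genes, may have been split in ways the files do not show.

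Some other genes of the interferon pathway were higher in library 1 in both groups without reaching the threshold in both. Bst2 read 72.4 and 47.9 RPKM in KD cells, against 102 and 32.9 in control cells. H2-D1 read 7.92 and 3.17 RPKM, against 8.18 and 5.09. Others were not higher in library 1 in both groups. B2m, the light chain of class I molecules, read 40.2 and 48.5 RPKM in KD cells, against 35.3 and 13.4 in control cells. Stat2 read 8.81 and 11.4 RPKM in KD cells, against 10.97 and 8.05 in control cells. Irf1 and Irf9 lay at or below 0.08 RPKM in all 4 libraries, yet each has 3 RefSeq entries in the table. Genes with several entries had a median of 0.19 RPKM at their highest entry, against 0.67 RPKM for genes with 1 entry, so a low value of such a gene cannot be read as absence, and the same holds for Elf5, Eomes, Postn, Pdgfrb and Ptprc, which also have several entries. Of the members, 184 had 1 entry and 8 had several.

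The promoters of the interferon members are shown because 6 of their 15 windows held the ISRE core GAAANNGAAA on either strand, those of Gbp2, Gbp3, Isg15, Cxcl10, Irgm1 and Igtp. Capitals mark the core in stretches that end before the transcript start, and a core in capitals that begins with T lies on the opposite strand.
Gbp2 (GRCm38.p6 chr3:142620579-142620638, plus strand): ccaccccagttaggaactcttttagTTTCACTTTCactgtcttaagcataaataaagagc
Gbp3 (GRCm38.p6 chr3:142559974-142560039, plus strand): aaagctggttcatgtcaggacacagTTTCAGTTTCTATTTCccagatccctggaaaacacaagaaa
Isg15 (GRCm38.p6 chr4:156200850-156200921, minus strand): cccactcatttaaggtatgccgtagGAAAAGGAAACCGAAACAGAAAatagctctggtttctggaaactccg
Cxcl10 (GRCm38.p6 chr5:92349068-92349127, minus strand): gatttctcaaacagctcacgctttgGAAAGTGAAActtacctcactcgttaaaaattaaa
Irgm1 (GRCm38.p6 chr11:48871421-48871475, minus strand): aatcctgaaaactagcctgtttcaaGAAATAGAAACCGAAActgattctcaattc
Igtp (GRCm38.p6 chr11:58199497-58199555, plus strand): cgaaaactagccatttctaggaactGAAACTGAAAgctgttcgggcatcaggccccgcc
The core occurred in 2.65% of the windows of all genes tested and in 3.44% of those of the whole table. It started 59 bases before the transcript start in Gbp2 and 24 and 30 bases before it in Irgm1, with 3 overlapping matches in Isg15. As with the CArG boxes, no binding was measured at these letters.

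The other lists held few members. Primitive endoderm, the embryo's first internal epithelium, had 3 of 18, Krt19, Col4a2 and Lrp2, while its defining factors Gata6 and Sox7 had gaps of −0.64 and −0.25 in KD cells and −0.67 and −1.36 in control cells. Lrp2, the endocytic receptor megalin, read 5.87 and 1.22 RPKM in KD cells, against 12.1 and 2.99 in control cells. Col4a2, a basement membrane collagen, read 7.45 and 1.91 RPKM in KD cells, against 9.00 and 3.59 in control cells. Of 23 genes of the primed state the members were Cldn6, Sall2 and Pim2, the last a kinase at 16.9 and 7.83 RPKM in KD cells, against 43.9 and 12.7 in control cells. Sall2, a zinc finger factor, read 1.57 and 0.49 RPKM in KD cells, against 2.84 and 0.65 in control cells. The neural list gave Nes, an intermediate filament of progenitors, at 7.59 and 0.86 RPKM in KD cells, against 10.7 and 2.45 in control cells, but Sox1 had gaps of −0.31 and −0.16. The endothelial list gave Flt1, a receptor for VEGF, at 1.85 and 0.13 RPKM in KD cells, against 3.19 and 0.07 in control cells, while Cdh5, which defines endothelium, had gaps of −0.79 and −0.53. Cav2, a caveolar coat protein, joined Pmp22 from the annexin list, Fas from the p53 list and Atf3 from the stress list.

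Naive pluripotency gave 0 members of 21 tested genes, and its median gap was −0.18 in KD cells and −0.04 in control cells. Macrophage genes gave 0 members of 2 tested, and Ptprc and Tyrobp were at 0 in all 4 libraries. Csf1r, under the minimum level, read 0.23 and 0 RPKM in KD cells, against 0.23 and 0.004 in control cells. Hox genes gave 0 of 4 tested, with median gaps of −0.58 and −0.66. No list's gap was tested, since the gaps chose the members.

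**Figure D4:**
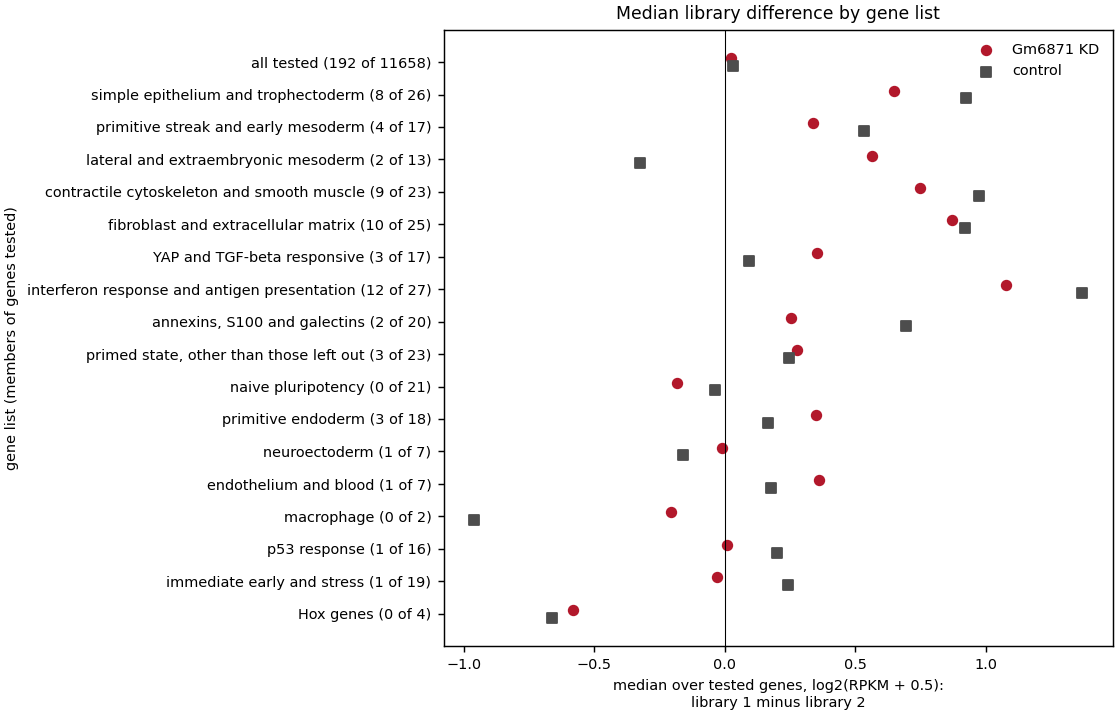
Median gap (library 1 minus library 2, log2(RPKM + 0.5)) over the tested genes of each list in Gm6871 KD cells (circles) and control cells (squares), with the number of members and of genes tested in brackets. The interferon list lies farthest right at 1.08 and 1.37, and naive pluripotency lies at −0.18 and −0.04, near the median of all genes.

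On none of the 17 lists stood 138 members, with smaller gaps from 1.01 to 2.54 and a median of 1.29, against a median of 1.71 for the 54 listed ones. Klhl13, an X-linked adaptor of a ubiquitin ligase, was the most abundant of these, at 138.5 and 48.3 RPKM in KD cells, against 102 and 25.5 in control cells. Gldc, a mitochondrial enzyme of glycine breakdown, read 66.2 and 16.4 RPKM in KD cells, against 83.4 and 19.0 in control cells. Together with Krt8, Krt18 and Krt19 they were the 5 members with the highest mean level. The serine protease Prss23 read 2.79 and 0.07 RPKM in KD cells, against 7.12 and 0.07 in control cells. Capn6, a calpain-like protein of placenta and embryonic muscle, read 3.37 and 0.18 RPKM in KD cells, against 5.60 and 0.12 in control cells. Cd99, a cell surface glycoprotein, read 3.83 and 0.30 RPKM in KD cells, against 5.57 and 0.58 in control cells. The entry XR_104853, which has no symbol here, read 2.41 and 0 RPKM in KD cells, against 4.97 and 0 in control cells.

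Several members code for secreted signals, and the genes of this paragraph were picked after their values were seen. Of the Wnt ligands, Wnt3, Wnt4, Wnt5b and Wnt9a were members, with smaller gaps from 1.06 to 2.17, as was the Wnt target Ccn4. Other Wnt genes were not: Wnt5a had gaps of 0.02 in KD cells and 1.00 in control cells, Wnt3a, which fell under the minimum level, of 0.76 and 0.41, and the Wnt targets Axin2 and Sp5 of 0.99 and 0.70 and of 1.15 and 0.53. Wnt genes as a whole were not counted. Ccn4, a secreted matricellular protein, read 2.10 and 0.01 RPKM in KD cells, against 2.23 and 0.04 in control cells. Nog, a secreted inhibitor of BMPs, read 1.04 and 0.10 RPKM in KD cells, against 2.48 and 0.16 in control cells. Imprinted genes were among them too: Igf2, the paternally expressed growth factor, read 2.28 and 0.23 RPKM in KD cells, against 3.46 and 0.09 in control cells. Meg3, Rian and Mirg, maternally expressed noncoding RNAs of 1 cluster on chromosome 12, were members together. Rian read 17.8 and 1.99 RPKM in KD cells, against 15.8 and 3.56 in control cells, and Meg3 read 4.51 and 0.61 RPKM, against 4.11 and 0.75.

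Some members were neighbours in the genome. Among tested genes in chromosome order, 25 members lay next to another member, in 11 runs. No such count was made for other sets of genes, so nothing is read from its size. The runs of 3 were Meg3, Rian and Mirg on chromosome 12, Psmb9, Psmb8 and Tap2 on chromosome 17, and Acta2, Fas and Ifit2 on chromosome 19. Tap2, which moves peptides into the endoplasmic reticulum, read 2.05 and 0.26 RPKM in KD cells, against 4.98 and 0.31 in control cells. Krt8 with Krt18, Gbp2 with Gbp3 and the near-identical Gstp1 with Gstp2 were among the pairs, and reads of the Gstp genes may be split between them. The X chromosome held 15 members of 368 tested genes (4.08%) and chromosome 11 held 24 of 950 (2.53%), against 188 of 11100 (1.69%) over all placed genes.

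Promoter windows were found for 146 members, 197 windows in all. Their median ratio of observed to expected CpG was 0.55, against 0.77 for the windows of genes tested and 0.38 for the whole table, and 43.1% of them reached 0.6, against 71.6% and 35.8%. The CArG box with no base off was in 4.57% of member windows, against 1.25% for genes tested and 1.63% for the whole table. The ISRE core was in 5.58%, against 2.65% and 3.44%. TATAAA was in 10.2% of member windows, against 7.01% and 13.6%, GGAATG, a core bound by TEAD factors, in 15.7%, against 12.1% and 14.7%, and CACGTG, the E-box, in 5.58%, against 10.5% and 7.15%. These shares are descriptions, with all motifs read on both strands.

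No member was called between Gm6871 KD and control cells, a result that the choice of members made likely in advance. With limma on log2(RPKM + 0.5), 0 of the 192 members had an adjusted p under 0.05, as had 0 of all genes tested (0%), the lowest adjusted p being 0.997. At an unadjusted p under 0.05 stood 0 members, against 223 of all genes tested (1.91%). Both KD libraries were above both controls for 0 members, against 13.6% of genes tested, and below both for 0, against 14.2%. The choice puts library 1 far above library 2 within each group. It thereby widens the spread that limma sets a difference against and leaves little room for groups that do not overlap. Nothing is therefore read from these counts or from the members' p-values. Of single members, Psmb10, chosen after its values were seen for the lowest p, averaged 9.37 ± 6.25 RPKM in KD cells and 17.0 ± 8.47 RPKM in control cells (SD, n = 2 each), a log2 difference of −0.90 ± 0.55 (SE) with an adjusted p of 0.997 by limma. In an exact permutation test, 2 libraries against 2 cannot give a p below 0.333.

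The members' differences are given as a description, since they come from the same 4 values that chose the members, and nothing is read from them. The log2 difference, KD minus control, was below 0 for 139 of 192 members (72.4%), against 50.4% of genes tested, and its median was −0.24, against −0.0026. Within libraries numbered 1, 156 members (81.3%) were lower in KD than in control, against 51.8% of genes tested. Within libraries numbered 2, 111 members (57.8%) were lower in KD, against 49.2%. Both held for 96 of the 192 members, against 24.2% of genes tested. The median was 0.71 without control library 1, 0.59 without KD library 2, −0.99 without KD library 1 and −1.10 without control library 2, signs that the choice of members fixes.

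The same values can be given by gene group, and nothing is read from them here either. Beside these counts, 81.3% of all members and 51.8% of genes tested were lower in KD in libraries 1. In libraries 2 the shares were 57.8% and 49.2%. Of the 12 interferon members, 11 were lower in KD library 1 than in control library 1 and 9 lower in KD library 2 than in control library 2. Their RPKM summed to 68.2 and 9.42 in KD libraries 1 and 2, against 137 and 17.0 in control libraries 1 and 2. Of the 10 matrix members, 8 were lower in KD in libraries 1 and 8 in libraries 2, with sums of 87.5 and 7.16 RPKM in KD cells, against 157 and 16.6 in control cells. Both sums were lower in KD at both numbers, but each leaned on single genes. In the control libraries the matrix sum rested mostly on Igfbp3, at 100.5 of 157 and 8.86 of 16.6 RPKM. In the KD libraries Igfbp3 gave 40.0 of 87.5 and 2.43 of 7.16 RPKM. The interferon sum in libraries 2 rested mostly on Psmb10. In libraries 1 Gbp2 gave 23.1 of 68.2 RPKM in KD cells and 53.5 of 137 in control cells. Of the 8 epithelial members, all 8 were lower in KD in libraries 1 but 2 in libraries 2, with sums of 474 and 114 RPKM in KD cells, against 561 and 50.7 in control cells. Of the 9 contractile members, 8 were lower in KD in libraries 1 and 4 in libraries 2, with sums of 153 and 35.8 RPKM in KD cells, against 178 and 33.9 in control cells. The differences between these groups were not tested.

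**Figure D5:**
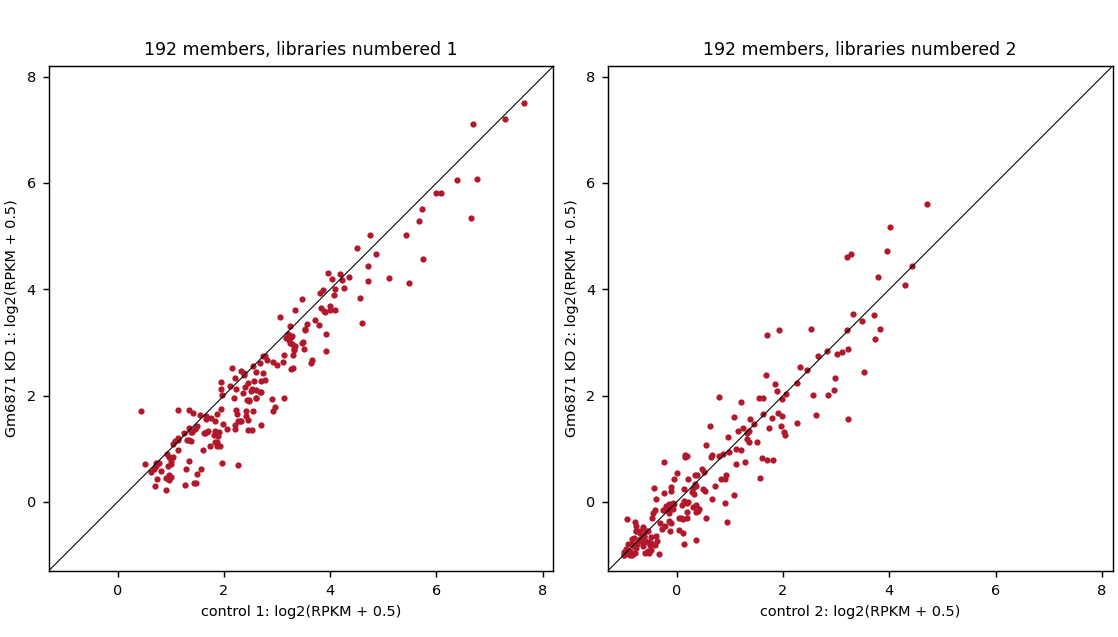
Each point is a member, placed by its level in control cells (horizontal) and Gm6871 KD cells (vertical) as log2(RPKM + 0.5), for libraries numbered 1 (left) and 2 (right); the line marks equal levels. Below the line lie 156 members for libraries 1 and 111 for libraries 2.

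In human H1 ES cells the same genes could be looked up by symbol for 165 members, of which 121 passed the minimum of 0.5 RPKM and 44 did not. With 1 library per group there is no test. At least 2-fold higher with DNMT knockdown than in control, on log2(RPKM + 0.5), stood 12 of the 121 (9.92%), against 3.01% of 8497 human genes whose mouse namesake was tested. At least 2-fold lower stood 10 (8.26%), against 4.01% of those genes, and the members' median difference was 0.05, against 0.03. MEG3 had the largest positive difference, with 5.05 RPKM in DNMT KD cells, against 0.03 in control cells. VGF, a secreted neuropeptide precursor, read 5.05 RPKM in DNMT KD cells and 0.28 in control cells. CTHRC1, a secreted matrix protein, read 6.47 RPKM in DNMT KD cells and 0.68 in control cells. Among the markers, KRT8 read 252 RPKM in DNMT KD cells and 106 in control cells, and KRT18 read 175 and 63.5. The other markers did not pass 2-fold: TAGLN read 55.1 and 36.2, COL1A1 18.2 and 22.8, and ACTA2 1.41 and 1.33. HAND1, T and GBP2 were under the minimum level. KRT19, a member but no marker, read 45.4 RPKM in DNMT KD cells and 62.1 in control cells. On the lower side, COL6A1 read 3.51 RPKM in DNMT KD cells and 30.4 in control cells. CLDN3, a claudin, read 1.09 RPKM in DNMT KD cells and 9.91 in control cells, CD99 read 2.55 and 17.6, and BIK, a gene that promotes apoptosis, read 0.25 and 3.59. The human homologues thus lay on both sides, with 99 of 121 within 2-fold.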

How the data were processed

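Members and gene lists were chosen with earlier results of these data known. RPKM values were deposited by the authors for each RefSeq entry, with Bowtie 0.12.5 and the builds mm9 and hg19 named in the submitters' processing notes; the annotation, the use of strand and the placing of reads with many positions were not stated. Of 36083 mouse entries, 27888 matched a symbol in the RefSeq table, and the entry with the highest mean stood for each gene. The 8 columns of the authors' means and ratios were not used. Library totals were worked out from the RPKM of single L1 copies, and the reads of each entry by searching for the shortest length at which all 4 libraries gave integers, within 0.0001 reads.

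Gm6871 KD was compared with control by limma 3.58.1 in R 4.3.3 (variance trend, pseudocount 0.5, Benjamini-Hochberg adjustment over 11658 genes), tested on simulated data first. Named were the markers, the 20 largest smaller gaps, up to 6 members a list, 3 genes on each side of the threshold, KD-contrast members whose groups do not overlap (0 found), human homologues past 2-fold (4 each way) and the 5 most abundant members. Other pseudocounts, minimums, gaps, centring, trend and left-out libraries were tried. Values of some genes are not reported here.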

Additional observations from a re-analysis of the deposited data

How the results depend on the processing

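The number of members followed the cutoff: 117 with a pseudocount of 1, 304 with a gap of at least 0.75 and 71 with a gap of at least 1.5, and within 1.5 times 192 under the other settings of the choice (261 with a pseudocount of 0.1, 201 with no minimum, 161 with a minimum of 1 RPKM, 186 after centring each library and 192 with entries kept apart). Under every setting of the limma fit, leaving out each library included, 0 genes and 0 members had an adjusted p under 0.05. With no minimum, 996 of 30619 genes had an unadjusted p under 0.05 and the lowest adjusted p was 0.125. The members' median difference lay between −1.10 and 0.71 when 1 library was left out, where the lone library is assumed to vary like the other group, and between −0.27 and −0.19 otherwise. The labels do not say what libraries of the same number share, so the numbers were not taken as pairs. With the replicate block the median stayed −0.24, 0 members were called and 19 had an unadjusted limma p under 0.05, against 0 without it. Over all 11658 genes tested, 372 had such a p with the block and 223 without it. The block takes up the difference between libraries 1 and 2 that chose the members, so nothing is read from the members' count. Gaps in the 2 groups correlated across all tested genes at r = 0.29, and at r = 0.11 across the 11465 that did not meet both gaps. Both are descriptions, since genes are not replicates. Low counts limit the gaps of 22 members, which had fewer than 10 reads in KD library 2 or control library 2.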

Other observations

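The 23 genes with the opposite pattern, at least 1 unit lower in library 1 in both groups, were few beside the 192. Napsa, an aspartic protease, read 8.88 and 64.5 RPKM in KD libraries 1 and 2, against 6.80 and 27.7 in control libraries 1 and 2. Msln, a surface protein of mesothelium, read 6.02 and 36.6 RPKM in KD cells, against 5.60 and 21.9 in control cells. The metal-binding protein gene Mt2 read 736 and 1561 RPKM in KD cells, against 570.4 and 1215 in control cells, and the nuclear noncoding RNA Malat1 read 113 and 303 RPKM, against 81.4 and 190. These genes were picked after their values were seen.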
